A study of Apis mellifera with 24 samples.

Results

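The major royal jelly protein gene cluster was followed through the identifiers GB55204, GB55205, GB55206, GB55212 and GB55213 of the honey bee official gene set (OGS 3.2). They were taken by identifier, as neighbouring genes of this family, with earlier results of these data known. All 5 were among the 15314 identifiers of the expression table, and all 5 passed the filter on low counts that left 10071 genes for testing. They took between 0.443% and 55.9% of all counts in a bee's brain library. They moved together from bee to bee, and most of the spread lay between sisters, here bees of 1 lineage, of the same status. The latter was so for the median tested gene too (63.3% within groups), but the size of the spread was far above that gene's.

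Major royal jelly proteins are the main proteins of royal jelly, the food that nurse workers make for larvae and for the queen. They are secreted chiefly by the hypopharyngeal glands, paired glands in the worker's head that lie close to the brain, and transcripts of the family have also been found in brain tissue. The family arose by gene duplication from the yellow family of insects, and its members lie side by side in the genome as closely similar copies. RefSeq's table for the assembly Amel_HAv3.1 holds 9 genes named Mrjp1 to Mrjp9, all on 1 linkage group, with 3 other genes between the first and the last. The tables used here do not pair these names with the identifiers of the expression table, so that the genes are given by identifier and no individual name or role is assigned to them.

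The brains came from single workers of reciprocal crosses between Africanized (Afr) and European (Eur) bees, kept queenless for about 18 days. Workers that have no queen can activate their ovaries and lay eggs. Crosses are written mother first. L875 (block A) and L882 (block B) were Eur x Afr, and L888 (block A) and L894 (block B) were Afr x Eur. Each of the 4 lineages gave 3 bees labelled reproductive and 3 labelled sterile, which makes 8 groups of 3 and 12 bees per status. The age of the bees is not given in the labels, and bee numbers only name the bees within a group.

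Total expected counts ran from 5.19 to 16.7 M per bee, and counts outside the 5 genes from 5.16 to 11.7 M. Both were lowest in L882 Reproductive 1. The defining markers of neurons, glia, head glands and fat body could not be checked, since 0 identifiers are paired with a name. Column headers of the allele tables carry the letters A and I beside each lineage number, and for L888 alone these letters are swapped between reproductive and sterile bees. The bees were used as GEO's labels give them, and the status comparison is also given without L888. The libraries of L875 Sterile 3 and L882 Reproductive 1 stood far below the rest for the 5 genes. Expected counts with decimals occurred in 24 of 24 bees for GB55205 and GB55212, in 23 for GB55204, in 17 for GB55213 and in 9 for GB55206. No source used here says how the authors divided reads between similar copies, so that the split of counts among these genes is uncertain.

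The share of the whole library taken by the 5 genes differed widely between bees. In L875 the summed share was 48.2%, 9.86% and 14.9% in the reproductive bees and 46.3%, 30.3% and 0.675% in the sterile bees. In L882 it was 0.443%, 31.5% and 13.1% in reproductive and 37.1%, 48.9% and 30.7% in sterile bees. In both Eur x Afr lineages, 1 bee had almost none of this RNA while a sister of the same status gave it over 30% of her library. L888 had the lower shares, 2.52%, 22.9% and 2.86% in its reproductive bees and 4.48%, 29.3% and 13.7% in sterile bees. L894 had high shares in every bee, 30%, 24.5% and 35.0% in reproductive and 48.7%, 37.3% and 55.9% in sterile bees. The mean of the 12 reproductive bees was 19.7% ± 14.9 and that of the 12 sterile bees 32% ± 17.8 (SD), and the ranges overlapped almost fully. In a whole brain, fewer cells that make these transcripts and less of them per cell cannot be told apart. Nor do these libraries show whether all of this RNA came from brain cells, since markers of head glands could not be checked. The source of the RNA was not tested.

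**Figure D1:**
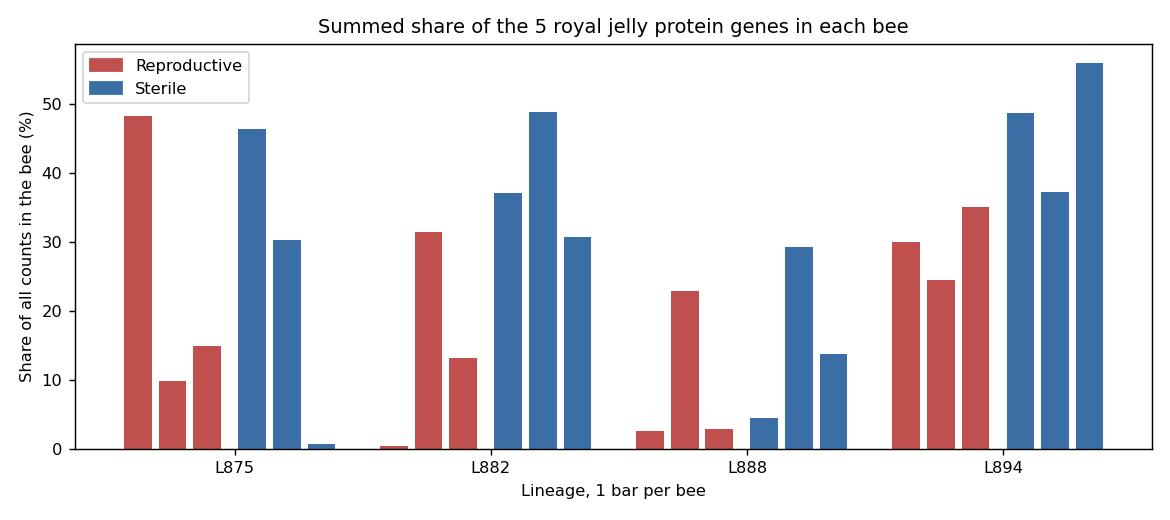
Share of all expected counts (%) taken by the 5 genes together, 1 bar per bee, in lineages L875, L882, L888 and L894, red for reproductive and blue for sterile bees. Shares ran from 0.443% (L882 Reproductive 1) to 55.9% (L894 Sterile 3), and the L894 bees all stood at 24.5% or more.

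Levels of single genes are given as CPM (counts divided by library size, with TMM factors), with 1 kCPM standing for 1000 CPM. These factors are set by the bulk of the genes, so that a gene's value is read against the rest of the brain's RNA and the values of a bee need not add up to a fixed total. Gene length was not taken into account, so levels are compared between bees for 1 gene and not between genes.

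GB55205 took the largest part of the cluster's counts. In L875 it stood at 602, 47.3 and 108 kCPM in the reproductive bees and at 452, 300.4 and 5.72 in the sterile bees. In L882 the reproductive bees had 1.47, 190.2 and 69.4 kCPM of GB55205 and the sterile bees 243, 429.7 and 184. The statuses overlapped in both lineages, and the highest L882 reproductive bee lay just above the lowest sterile bee. L888 reproductive bees had 12.2, 139 and 11.8 kCPM of GB55205, and the sterile bees 21.3, 205 and 82.2. In L894 it was 193, 128 and 227 kCPM in reproductive and 525, 255 and 697 in sterile bees, without overlap. Over all 24 bees the median of GB55205 was 187 kCPM, and the highest bee had 474 times the level of the lowest.

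GB55204 had the widest range of the 5. In L875 its level was 119.7, 4.47 and 2.37 kCPM in reproductive bees, against 138, 19.3 and 0.0690 in sterile bees. In L882 GB55204 had 0.191, 42.0 and 12.2 kCPM in reproductive and 66.4, 148 and 55.1 in sterile bees. Here every sterile L882 bee stood above every reproductive one, while the L875 statuses overlapped from end to end. L888 showed 1.07, 21.1 and 0.935 kCPM of GB55204 in reproductive and 1.31, 57.3 and 2.97 in sterile bees. In L894 the reproductive bees were close together at 55.8, 54.7 and 76.1 kCPM of GB55204, and the sterile bees had 143, 77.7 and 243. The median of GB55204 over 24 bees was 48.4 kCPM, and the highest bee had 3519.8 times the level of the lowest.

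The order of bees for GB55212 was close to that for GB55204 (Spearman's rho 0.950 over 24 bees after removal of lineage means) but not the same. Its L875 levels were 160.1, 10.1 and 12.9 kCPM in reproductive and 135, 63.8 and 0.109 in sterile bees. Its L882 levels were 0.310, 50.8 and 11.2 kCPM in reproductive and 62.3, 126 and 36.3 in sterile bees. The second L882 reproductive bee lay inside the sterile range. In L888 GB55212 had 2.25, 27.9 and 1.52 kCPM in reproductive and 1.95, 47.2 and 14.5 in sterile bees. In L894 it had 45.5, 26.7 and 45.2 kCPM in reproductive and 136, 61.7 and 179 in sterile bees. The L894 statuses did not overlap, and the highest of the 24 bees had 1640.1 times the GB55212 level of the lowest.

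GB55206 was at 30.2, 2.05 and 3.31 kCPM in L875 reproductive bees and at 27.3, 12.8 and 0.0441 in L875 sterile bees. In L882 GB55206 had 0.132, 10.9 and 2.64 kCPM in reproductive and 10.9, 26.8 and 9.09 in sterile bees. The highest and the lowest of the 24 bees were both in L875. L888 bees had 0.658, 7.44 and 0.882 kCPM of GB55206 when reproductive and 1.29, 8.85 and 3.28 when sterile. L894 bees had 9.71, 7.97 and 10.4 kCPM of GB55206 when reproductive and 20.1, 14.5 and 25.6 when sterile. Only L894 separated the statuses for this gene, and the 24 bees spanned a 684-fold range.

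GB55213 stood at 33.2, 1.84 and 4.25 kCPM in L875 reproductive bees and at 34.3, 17.1 and 0.0403 in L875 sterile bees. In L882 GB55213 had 0.209, 12.8 and 3.44 kCPM in reproductive and 11.4, 30 and 11.4 in sterile bees. The L882 bee with the lowest value of every other member was the lowest here too. L888 bees had 0.706, 6.21 and 0.763 kCPM of GB55213 when reproductive and 0.650, 7.18 and 4.61 when sterile. L894 bees had 11.6, 6.94 and 8.25 kCPM of GB55213 when reproductive and 17.6, 12.1 and 27.7 when sterile. The range over 24 bees was 851-fold, and the statuses overlapped in L875, L882 and L888.

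**Figure D2:**
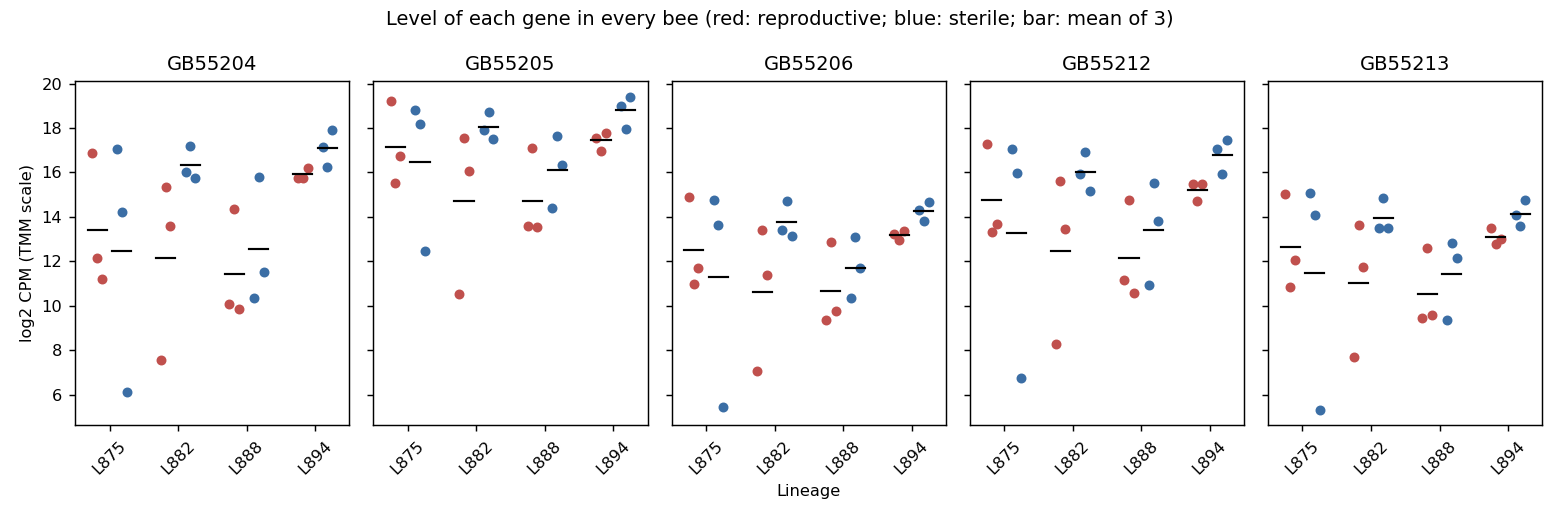
log2 CPM (TMM scale) of each of the 5 genes in every bee, by lineage, red for reproductive and blue for sterile bees, with a bar at the mean of each 3. The lowest points of all panels are L875 Sterile 3 and L882 Reproductive 1, and the L894 bees lie close together.

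Most of the variation lay between sisters of 1 lineage and 1 status. On the log2 CPM scale, differences within groups made up 59.9% of the total sum of squares of GB55204, 62.2% of GB55205, 67.7% of GB55212, 69.7% of GB55206 and 72.1% of GB55213. The median of all tested genes was 63.3%, so that the split itself was like that of other genes. With 8 groups of 3 bees, the larger part is expected within groups even for a gene that neither lineage nor status affects. The size was not: the SD within groups was 3.05, 2.16, 2.81, 2.42 and 2.50 log2 units in the same order, where the median gene had 0.40. GB55204 ranked at place 4 of the 10071 genes by this SD, GB55212 at 8, GB55213 at 16, GB55206 at 19 and GB55205 at 36. Status held 3.71% to 9.10% of the sum of squares of the 5 genes and lineage 15.2% to 27.6%, against medians of 1.28% and 22.4% over all tested genes.

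The 5 genes moved in step from bee to bee. After the lineage means were removed, Pearson's r over 24 bees ran from 0.955 (GB55205 with GB55213) to 0.991 (GB55206 with GB55212 and with GB55213). All 10 pairs had p = 1e-05 in a two-sided permutation of bees within lineages, the smallest that 100000 draws can give, and 1e-05 after adjustment over the 10 pairs. Spearman's rho lay between 0.913 and 0.979, each with the same p. Without the 2 bees farthest from the median of the first gene of a pair, r was 0.917 to 0.979. Without L875 Sterile 3 alone it was 0.948 to 0.988, and without L882 Reproductive 1 alone 0.944 to 0.990. It was 0.944 to 0.992 in block A and 0.987 to 0.995 in block B. The pairs share libraries and may share reads, as given above for the counts with decimals.

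**Figure D3:**
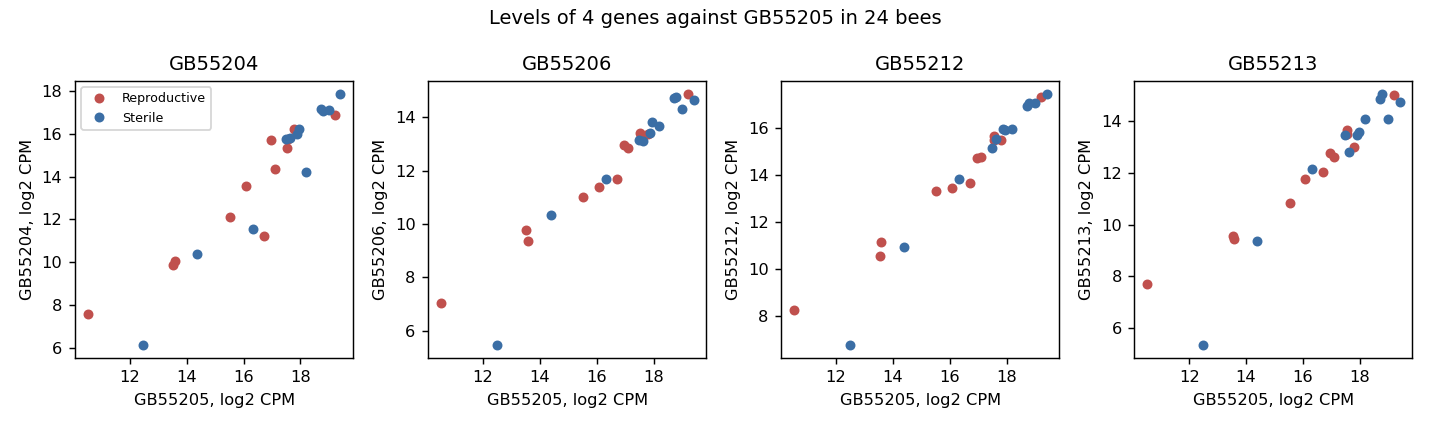
log2 CPM of GB55204, GB55206, GB55212 and GB55213 (vertical axes) against log2 CPM of GB55205 (horizontal axes), 1 point per bee, red for reproductive and blue for sterile. The points follow a rising line in both statuses, below which L875 Sterile 3 lies in every panel, with r of 0.955 to 0.974 to GB55205 after removal of lineage means.

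Within this common movement the make-up of the cluster shifted. GB55205 gave a median of 63.3% of the 5-gene count, from 56.5% in L882 Sterile 2 to 95.6% in L875 Sterile 3. GB55204 gave a median of 13.2%, from 1.15% in L875 Sterile 3 to 24.4% in L894 Reproductive 2. GB55212 had a median of 14.1% and ranged from 1.82% to 17.2%. The shares are of counts and are not corrected for length, so that only their changes from bee to bee are read here. Across the 24 bees the log2 share of GB55204 was related to the log2 summed level of the cluster with r = 0.63, that of GB55212 with 0.60 and that of GB55205 with -0.64. For GB55206 and GB55213 r was -0.076 and -0.047. For these 2 genes the low bees stood at opposite ends. L875 Sterile 3 had their lowest shares (0.737% and 0.674%) and L882 Reproductive 1 their highest (5.72% and 9.03%). L875 Sterile 3 also had the lowest shares of GB55204 and GB55212 and the highest share of GB55205. No r was computed without these bees, so how far any of these r, large or small, rests on them is not known. An r near 0 does not show that a share was unrelated to the level. Lineage means were not removed here, so that differences between lineages also enter these r. A gene's share and the sum contain the same counts, so these values are given as a description with no test.

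The low bees differed from each other in make-up. L875 Sterile 3 and L882 Reproductive 1 both gave the 5 genes under 1% of the library. In L882 Reproductive 1, GB55205 made up 63.6% of the 5-gene count, close to the median bee, and GB55213 made up 9.03%, its highest share. In L875 Sterile 3 the other 4 genes were nearly gone, with 1.82% for GB55212, 0.737% for GB55206 and 0.674% for GB55213.

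**Figure D4:**
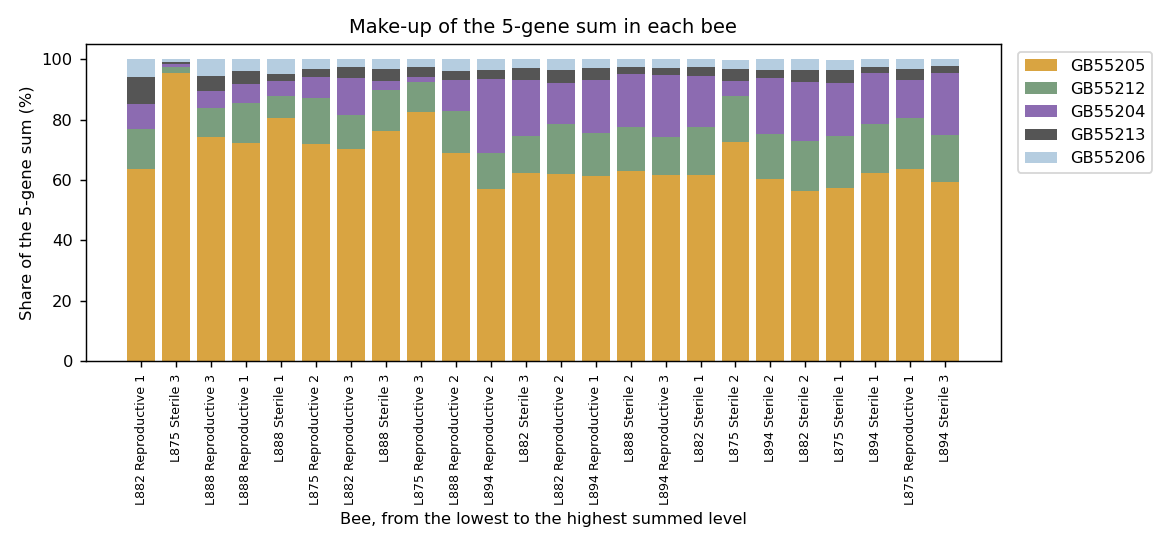
Share (%) of the 5-gene count held by each gene, 1 stacked bar per bee, ordered from the lowest to the highest summed level. GB55205 holds 56.5% or more in every bee and 95.6% in L875 Sterile 3, and GB55204 holds 1.15% to 24.4%.

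The comparison of statuses asked whether brains of reproductive and sterile workers differ in these transcripts. All 5 genes had lower fitted levels in reproductive bees, but 0 of 5 had an adjusted p under 0.05 in edgeR. The same held for all 10071 genes tested, of which 0% passed in edgeR, with 237 at an unadjusted p under 0.05. DESeq2 called 1 of all genes and limma voom 0. GB55204 had a log2 difference of -1.34 (SE 0.87, 95% interval -3.13 to 0.45), with 32.6 ± 38.0 kCPM in the reproductive and 79.4 ± 75.1 in the sterile group (mean ± SD of 12 bees). GB55205 had -1.02 (SE 0.66, interval -2.39 to 0.35), with 144 ± 163 against 283 ± 209.7 kCPM. Among reproductive bees the SD exceeded the mean, and the groups overlapped almost fully. The log2 differences of GB55212, GB55206 and GB55213 were -1.17 (-2.76 to 0.41), -0.91 (-2.28 to 0.47) and -0.96 (-2.33 to 0.41). The adjusted p in edgeR was 0.9997 for each of the 5, and their unadjusted p lay between 0.136 and 0.186. The intervals reach from more than a 4-fold lower level to a slightly higher one, so that equal levels are not shown. The median log2 difference of the 5 genes was -1.02, beside 0.005 for all tested genes.

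DESeq2 and limma voom also called 0 of the 5 for status. At an unadjusted p under 0.05 they had 1 member (GB55204) and 0 members, beside 274 and 232 of all genes tested. Without the low bee L875 Sterile 3 the log2 differences were -1.52 to -1.07 (unadjusted edgeR p of 0.0509 to 0.0650), and without L882 Reproductive 1 they were -1.17 to -0.74 (0.165 to 0.242), with 0 of 5 passing in both. With L888 left out, the log2 differences were -1.31 to -1.01 and 0 of 5 passed. In block A alone they were -0.87 to -0.39, with unadjusted edgeR p of 0.548 to 0.714. In block B alone they were -1.81 to -1.39, and 4 of 5 had an unadjusted edgeR p under 0.05, with 0 of 5 after adjustment. Among all genes of that fit, 444 had an unadjusted p under 0.05. The 5 genes move in step, so that they are not 5 separate results. The status difference was tested directly for a difference between the lineages. None of the genes passed (0 of 5) after adjustment (edgeR F test, unadjusted p of 0.822 to 0.919), beside 0% of all genes tested (292 at an unadjusted p under 0.05).

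Lineage by lineage and by mean log2 CPM, the direction was the same in L888 (as GEO labels its bees), L882 and L894 and opposite in L875. The mean log2 difference of GB55205 was 0.66 for L875, -1.39 for L888, -3.32 for L882 and -1.35 for L894. For GB55204 it was 0.93, -1.13, -4.15 and -1.18 in the same order. The L875 sign depended on the measure, as the log2 mean of its sterile bees includes the low bee L875 Sterile 3. By the median of 3 bees, all 5 genes were lower in the reproductive L875 bees. These medians were 108 against 300.4 kCPM for GB55205 and 4.47 against 19.3 kCPM for GB55204. In L894 all 5 genes were lower in every reproductive bee than in every sterile bee, which held for 8.52% of all genes tested. The 5 genes follow the same bees, so this is a single order of 6 bees seen 5 times. In L882 1 of 5 genes, GB55204, was separated in this way, where 7.02% of all genes were. In L875 and L888 it was 0 of 5, where 1.31% and 1.65% of all genes were. None of the 5 was higher in every reproductive bee of a lineage, which held for 1.90% (L875), 3.60% (L888), 6.36% (L882) and 7.25% (L894) of all genes.

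**Figure D5:**
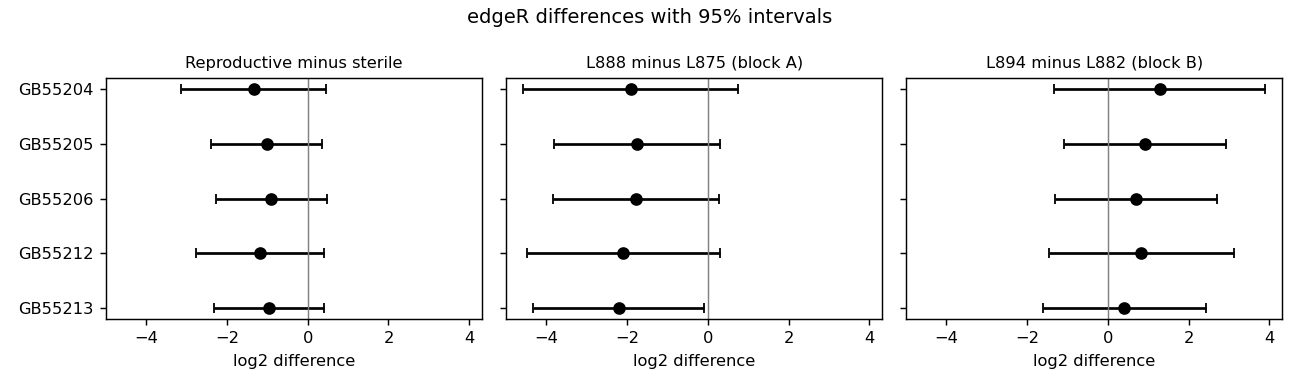
log2 differences from edgeR with 95% intervals for the 5 genes, reproductive minus sterile (left), L888 minus L875 in block A (middle) and L894 minus L882 in block B (right). The points lie below 0 on the left and in the middle and above 0 on the right, and the intervals include 0 except that of GB55213 in block A (-4.32 to -0.09, before adjustment for the number of genes).

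The reciprocal crosses asked whether the direction of the cross goes with the level of these genes. In block A, the Afr x Eur lineage L888 had lower fitted levels than the Eur x Afr lineage L875 for all 5 genes, with log2 differences from -2.20 (GB55213, SE 1.02) to -1.76 (GB55205, SE 0.98). None passed in edgeR (0 of 5, adjusted p of 0.369 to 0.518), where 0.218% of all genes tested did. At an unadjusted p under 0.05 there was 1 of 5 in edgeR (GB55213), 5 of 5 in DESeq2 and 0 of 5 in limma voom. Of all genes tested, 1324, 1452 and 1046 did so in these 3 tools. After adjustment DESeq2 and limma voom called 0 of the 5. The median log2 difference of the 5 genes was -1.90, beside -0.003 for all tested genes, and the edgeR intervals reached from -4.57 to 0.76 for GB55204 and from -3.80 to 0.29 for GB55205. Without L875 Sterile 3 the differences were -2.50 to -2.04, with 4 of 5 at an unadjusted edgeR p under 0.05 and 0 of 5 after adjustment. Among all genes of that fit, 1932 had an unadjusted p under 0.05. In block B the sign was the other way, with L894 above L882 by 0.41 (GB55213, SE 0.97) to 1.28 (GB55204, SE 1.26). Again 0 of 5 passed in edgeR (adjusted p of 0.673 to 0.877), where 0.119% of all genes tested did. At an unadjusted p under 0.05 there was 0 of 5 in edgeR, in DESeq2 and in limma voom. Of all genes tested, 1309, 1387 and 1213 were under it in these 3 tools, a minority, so that 0 of 5 says little about the members. The median of the 5 genes was 0.83, beside -0.020 for all tested genes, and the interval of GB55204 was -1.34 to 3.90. Without L882 Reproductive 1 the differences were 0.13 to 0.99. Each block has 1 lineage per direction, so that direction and family cannot be told apart within a block.

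Single bees carried much of these values. For GB55204 in block A the log2 difference was -1.90 with all bees, -0.10 without L875 Reproductive 1 and -3.54 without L888 Sterile 2. For GB55213 in block B it was 0.41 with all bees, 0.13 without L882 Reproductive 1 and 1.21 without L882 Reproductive 2. Whichever bee was left out, 0 of 5 genes passed in either block.

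Among all 4 lineages, 0 of 5 genes differed in edgeR's F test (adjusted p of 0.307 to 0.385, unadjusted p of 0.152 to 0.227), while 3.92% of all genes tested did. DESeq2 and limma voom also called 0 of the 5. At an unadjusted p under 0.05 they had 1 member (GB55204) and 0 members, beside 3216 and 2709 of all genes tested. By mean log2 CPM the highest group was L894 Sterile for each of the 5 genes, followed by L882 Sterile, L894 Reproductive and L875 Reproductive. For GB55205 these means were 18.79 ± 0.75, 18.03 ± 0.62, 17.44 ± 0.42 and 17.15 ± 1.87 (SD, n = 3 each). L875 Sterile followed at 16.49 ± 3.48, L888 Sterile at 16.12 ± 1.64, L888 Reproductive at 14.73 ± 2.04 and L882 Reproductive at 14.71 ± 3.70. For GB55205, neighbours from L894 Reproductive downwards differed by 0.02 to 1.39, less than their pooled SD of 1.36 to 2.99. The steps above it, 0.76 and 0.59, were slightly larger than their pooled SD of 0.69 and 0.53. The steps were not the same for every gene. For GB55204 the upper steps, 0.77 and 0.41, were below their pooled SD of 0.79 and 0.57. Its step from L894 Reproductive to L875 Reproductive, 2.51, was above its pooled SD of 2.16. The spread between sisters was itself uneven, for GB55205 from an SD of 0.42 in L894 Reproductive to 3.70 in L882 Reproductive. The other members had their largest SD in L875 Sterile, from 5.07 (GB55206) to 5.69 (GB55204).

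Identifiers numbered near the members were looked at by number only, since their positions and names are not paired in the tables. Between the members lie the numbers GB55207 to GB55211, and 4 of these 5 passed the filter on low counts. For status, cross direction in block A and in block B, lineage and status by lineage, 0 of these 4 were called by edgeR. Of all genes tested, 0%, 0.218%, 0.119%, 3.92% and 0% were called in the same order, so that 0 of 4 is no particular trait. GB55208 and GB55209, those with the highest mean CPM, followed the cluster, with r of 0.92 and 0.90 to its log2 summed level over 24 bees (deviations from lineage means). GB55208 ran from 239 CPM in L882 Reproductive 1 to 38375 CPM in L875 Reproductive 1. GB55209, whose counts had no decimals in any bee, ran from 349 to 12393 CPM in the same bees.

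GB55207, chosen after its values were seen, did not follow the cluster (r = 0.24). Its median over 24 bees was 417 CPM, its lowest value 55.0 CPM in L888 Reproductive 1 and its highest 7844 CPM in L875 Sterile 2. In L875 Sterile 3, the bee lowest for 4 of the 5 members, it stood at 1799 CPM. In L894, where the cluster was high in every bee, GB55207 had 736, 197 and 201 CPM in reproductive bees, 447 and 152 CPM in Sterile 1 and 2, and its highest level of the lineage in Sterile 3, so that 3 of 6 bees lay above its median. The order of the bees for GB55207 was thus not that of the members. Of the 10 numbers on each side, 19 were listed, 16 had counts and 10 passed the filter, with mean levels of 5.08 to 78.0 CPM. None of these 10 was called by edgeR in any of the comparisons, where at most 3.92% of all genes tested were (for lineage). Of the 10, 4 had r above 0.5 to the cluster, as had 1504 of the 10066 genes tested that are no members. The most abundant of them, GB55220, had r = -0.17, and the next, GB55203, had r = 0.79, from 0.0661 CPM in L888 Reproductive 1 to 305 CPM in L875 Sterile 1.

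Over the 10066 other genes tested, the median r to the summed level was -0.032, and 7 genes were above 0.9. The closest was GB55211, one of the numbers between the members, with r = 0.97 and a range from 10 to 16300.0 CPM. Its counts had decimals in 24 of 24 bees. Next came GB49708, with r = 0.96 (0.97 in block A and 0.96 in block B), which ran from 1.90 CPM in L875 Sterile 3 to 266 CPM in L894 Sterile 3. The genes most opposed were GB54261 (r = -0.87) and GB41134 (r = -0.85). GB54261 ran from 110.4 CPM in L875 Sterile 3 to 30.3 CPM in L894 Sterile 3, a much smaller range than that of the cluster. With library sizes computed without the 5 genes, these values were 0.97, 0.96, -0.88 and -0.85. All are likenesses over 24 shared libraries, given with no test.

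Sequencing depth outside the cluster had no uniform relation to its level. Between log2 counts outside the 5 genes and the log2 summed level, both as deviations from lineage means, r was -0.09 (permutation p = 0.662, n = 24) and rho was -0.30 (permutation p = 0.173). In block A r was -0.75 and in block B 0.37, and without the 2 bees farthest from the median depth it was -0.52. L882 Reproductive 1, in block B, had both the fewest counts outside the 5 genes (5.16 M) and the lowest summed level (2.31 kCPM). No r was computed without this bee alone, so the r of -0.09 does not show that depth and level were unrelated. Its part in the comparisons above was not tested. The counts outside the 5 genes are also part of the library size by which the level is divided. The 2 values are thus linked by construction, and the permutation p does not allow for this.

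The allele tables hold reads assigned to the mother's or the father's allele, for 3532 genes in reproductive and 3572 genes in sterile bees. Neither lists any of the 5 members, nor any of the 5 identifiers numbered between them, so that the parental shares of the cluster were not analysed here. Of the 20 numbers on either side, 2 are listed in each table.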

How the data were processed

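PolyA RNA of 24 single brains was sequenced as paired ends over 2 lanes. The deposited table holds expected counts per gene (87.3% of the values exactly whole, with a tolerance of 0), not scaled to a common total. The deposited allele tables hold read counts per parental copy and were used to look the genes up. Of tools, the submitters' processing notes list HISAT2 and limma with neither version nor role. No source used here gives the counter, the genome build or the annotation. The columns match GEO's titles, and 0 columns were left out.

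Expected counts were rounded and filtered with filterByExpr by the 8 groups. edgeR 4.0.16 (R 4.3.3) was fitted on the whole table with TMM factors and quasi-likelihood tests, two-sided, with Benjamini-Hochberg adjustment over 10071 genes and a threshold of 0.05. Status and lineage came from a model with both terms, cross directions from 1 mean per group, and status by lineage from their interaction. Log2 CPM used a prior count of 2 for variation and correlations. Alternatives were DESeq2 1.42.0, limma 3.58.1, other size factors, filters and models, and parts of the bees. edgeR was tested on simulated data. That simulation held no differences between lineages, its outcome is not reported here, and no result above rests on it. Labels call the bees individuals, so that n counts bees. All 5 members are named, with the 2 genes most and the 2 least like their sum and at most 2 abundant numbers per neighbouring list. Members, lists and alternatives were chosen with earlier results of these data known.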

Additional observations from a re-analysis of the deposited data

How the results depend on the processing

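Over up to 38 other settings per comparison (24 of them leaving out 1 bee), 0 of 5 genes passed in each comparison and no log2 difference changed sign. The lowest adjusted p of any of the 5 was 0.988 for status, 0.151 in block A, 0.525 in block B, 0.119 for lineage and 0.965 for status by lineage. The status difference of GB55204 ran from -2.08 to -0.79 with single bees left out. All 10 correlations kept their side of the threshold, with r from 0.944 to 0.995 with single bees left out and from 0.951 to 0.991 otherwise. With single bees left out, the mean summed share ran from 17.1% to 21.4% in reproductive and from 29.8% to 34.8% in sterile bees. Counts over all genes moved more. Against 22, 12 and 395 genes called for block A, block B and lineage, DESeq2 called 91, 82 and 1392, and limma voom 14, 6 and 416. Leaving out single bees gave 10 to 41, 1 to 19 and 166 to 723. For status, DESeq2 and edgeR without L888 each called 1 gene, beside 0. The filter of 10 counts in 12 bees gave 14 genes in block A. No paired analysis was possible because the labels give no replicate numbers that groups share. The planned settings for parental ratios were not run, since the allele tables list none of the 5 genes. The SD between sisters was 2.16 to 3.05 log2 units for the 5 genes.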
